A study of Mus musculus with 2 samples.

Results

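Accessible chromatin was described at 34 tight junction and polarity genes in the kidney of newborn mice. The 34 genes were taken by name from a fixed list and were 19 claudins, 6 other transmembrane genes, 4 cytoplasmic scaffolds and 5 polarity genes, out of 21938 protein-coding genes annotated in GENCODE release M21. All 34 were found by symbol. The tissue was labelled as kidney tissue of B6NCrl mice at age 0 days. There was 1 group of 2 libraries, replicates 1 and 2, with no treatment, genotype or other tissue to compare. Both libraries carry the same donor record, and nothing in the labels says that they came from different animals, so their spread may be technical. DNase-seq cuts nucleosome-depleted DNA with the enzyme DNase I, and a peak of cuts marks accessible chromatin in any of the cell types of the tissue.

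Tight junctions seal the space between neighbouring epithelial cells and separate the apical from the basolateral membrane. Their strands are built from claudins, small 4-span membrane proteins, some of which act as barriers and others as paracellular ion channels, so each nephron segment is known for its own claudin mix. Occludin and the MARVEL proteins lie in the same strands, JAM proteins are immunoglobulin-like adhesion molecules beside them, and ZO and cingulin proteins tie the strands to actin. The PAR and Crumbs complexes set up the apical domain and the position of the junction.

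The lists held 266133 peaks in replicate 1 and 257133 in replicate 2, and sequencing depth is unknown. The nephron markers Pax2, Pax8, Six2, Wt1, Nphs1, Lrp2, Umod and Cdh16 each had a promoter peak in both replicates, and so did general epithelial markers at 6 of 6 genes (Epcam, Cdh1, Krt8, Krt18, Krt19 and Esrp1). Stromal markers had one at 3 of 3 genes and endothelial markers at 5 of 5. The median promoter signal was 25.4 for the general epithelial markers and 32.8 for the endothelial ones, both below the claudin median of 35.9 given further on. The medians of the whole nephron list (62.6) and of the stromal markers (90.7) were above it. Of 6 markers of liver, muscle, lung, gut and skin, 0 had one. Among all protein-coding genes 71.8% had one in both replicates. That share rose with promoter CpG content, as given further on, and the marker lists were not matched for it. Kidney tissue mixes these cells, so a low signal from accessibility in few cells and a low signal in all cells cannot be told apart.

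Nearly all members were accessible at a promoter, but the promoter peaks of most claudins and of most other transmembrane genes were weak. Those of scaffold and polarity genes lay around the genome median. A promoter peak was one that touched the 1 kb before or after an annotated transcription start site (TSS) of the gene, and the promoter signal was the deposited signal value of the strongest such peak. By this count 30 of 34 members were accessible at a promoter in each of the 2 replicates (88.2%, exact binomial 95% interval 72.6 to 96.7), against 71.8% of all protein-coding genes. The 4 others, Cldn2, Cldn13, Cldn17 and Cldn18, had none in either replicate, and no member had a peak in 1 replicate alone. Claudins had one at 15 of 19 genes (78.9%, 54.4 to 93.9), scaffold and polarity genes at 9 of 9 (100%, 66.4 to 100) and the other transmembrane genes at 6 of 6 (100%, 54.1 to 100). The share of all genes weighted to the CpG content of the 34 members, as described further on, was 79.8%. The intervals cover counting error only, and genes are not replicates.

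**Figure D1:**
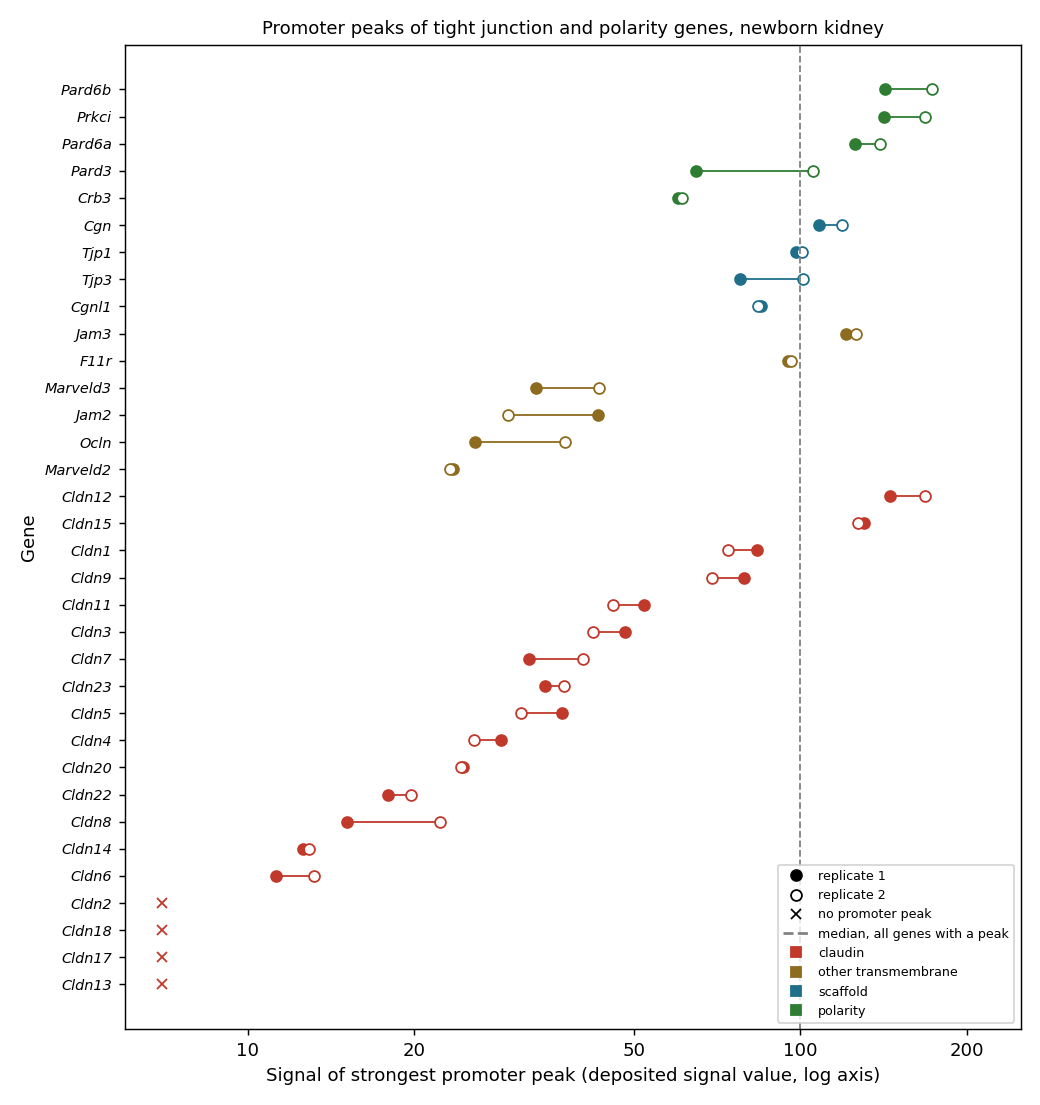
Signal of the strongest promoter peak of each gene (x axis, deposited signal value, log scale) in replicate 1 (filled) and replicate 2 (open), by class, with crosses for genes that have no promoter peak and a dashed line at the median of all genes with one (99.8). Of the 15 claudins with a peak, 11 lie below Crb3, the lowest scaffold or polarity gene (4 of 14 with a window of 500 bp and 1 of 14 with the most 5′ start site only), and only Cldn12 and Cldn15 lie right of the dashed line.

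Among the 3 claudins named first here as channels, promoters ran from a strong peak to no listed peak within 1 kb. Cldn15 (chr5:136966616-136975858, + strand, mm10), which forms a cation pore, had a signal of 130 in the first replicate and 127 in the second. Cldn2 (chrX:139800828-139811386, + strand), the cation and water pore of the proximal tubule, had no promoter peak, and the peak nearest to any of its TSSs was weak: it lay 1474 bp away with a signal of 8.67 in replicate 1, and 1534 bp away with 9.86 in replicate 2. Cldn17, an anion channel, also had none, its nearest peaks lying 1417 bp (16.3) and 1437 bp (10.1) away. Cldn2 is on the X chromosome, which carried 23.4 and 23.01 peaks per Mb in the replicates against 106.4 and 103 on autosomes. A peak at a promoter was present in both replicates at 50.3% of X-linked and 73.4% of autosomal protein-coding genes. The part of this difference in the result for Cldn2 was not tested.

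Claudins known from the distal nephron and collecting duct had low to moderate signals. Cldn3 had 48.2 and 42.2 from a peak centred at -359 and -339 bp from its TSS, and a second peak of 41.2 and 42.2 lay within 100 bp of the TSS. Cldn4 (chr5:134945119-134946934, - strand), which works with Cldn8 as a chloride pathway of the collecting duct, had 28.7 and 25.7. Cldn8 itself had 15.1 and 22.3, which put it among the 4 lowest claudins with a peak in each replicate. Cldn7 had 32.3 and 40.5 at an internal start site, 2056 bp downstream of the most 5′ one in replicate 1. Cldn14, a negative regulator of calcium uptake in the thick ascending limb, had only 12.6 and 12.9, also at an internal start site, 66422 bp from the most 5′ one, and it had no peak in both replicates at the most 5′ one. With a window of 2 kb its mean was 40.8, from a peak farther out. The replicate ranges of these 5 genes did not overlap, and their order from high to low was Cldn3, Cldn7, Cldn4, Cldn8 and Cldn14.

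Claudins known mainly from other cell types ranged from moderate signal to no peak. Cldn1, known from the parietal cells of Bowman's capsule and from epidermis, had 83.5 and 73.9. Cldn5, the main claudin of endothelium, had 37.1 and 31.3 from a peak within 100 bp of its TSS. The endothelial markers lay on both sides of it. Kdr had 65.0 and 62.2, Egfl7 60.3 and 68.3, and Cdh5, the cadherin of endothelial junctions, 35.6 and 30.0. Pecam1 had 21.2 and 26.2, and Tek 22.8 and 21.8. Cldn11, known from myelin and Sertoli cells and also found in kidney tubules, had 52.2 and 45.8. Cldn18, known from stomach and lung, had no promoter peak, and the nearest peaks lay 10728 and 12908 bp from its TSSs.

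Claudins of embryonic and newborn epithelia differed among themselves. Cldn9 (chr17:23682584-23684026, - strand) had 79.2 and 69.2, from a peak centred at -449 bp from its TSS in both replicates, and a second peak of 55.6 and 57.8 lay within 100 bp of the TSS. Its neighbour Cldn6 (chr17:23679249-23682446, + strand), with a TSS 4.78 kb away, had 11.3 and 13.2, the lowest mean of the claudins with a peak, although Cldn14 was lower in replicate 2. The strongest Cldn6 peaks of the replicates did not overlap, so this was not 1 site found in both. With a window of 2 kb the Cldn6 mean was 78.6, more than 1.5 times the value with 1 kb, through a peak upstream. That upstream peak was not among the sites away from every annotated TSS, so it appears to lie at a start site of another gene. Cldn13 had no promoter peak. The nearest peak to its TSS lay 2729 bp away in replicate 1 (signal 50.2) and 2769 bp away in replicate 2 (42.1).

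The remaining claudins spanned the whole range. Cldn12 (chr5:5489537-5514958, - strand), which lacks the PDZ-binding tail of other claudins, had the strongest claudin promoter, with 145 in replicate 1 and 168 in replicate 2. Cldn23, a claudin of epithelia of the gut, had 34.5 and 37.3. Cldn22 had 17.97 and 19.8. Cldn20 had 24.5 and 24.3, but that peak is centred 1061 bp downstream of the TSS, past the end of the short Cldn20 gene and in an intron of Tfb1m, and it was lost when the peak centre had to lie within 1 kb.

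The other transmembrane genes fell into a high pair and 4 low genes. The JAM family genes F11r (95.03 and 96.2) and Jam3 (121 and 126) were high and close between replicates. Jam2, a JAM protein of endothelium and other cells, had 43.1 and 29.6. The MARVEL genes were all low: Ocln, which encodes occludin, had 25.8 and 37.5, Marveld2, which encodes tricellulin of 3-cell contacts, had 23.5 and 23.3, and Marveld3 had 33.3 and 43.3. The replicate ranges of Ocln, Marveld3 and Jam2 overlapped, and Marveld2 lay below them.

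The scaffolds had signals near the genome median of 99.8. Cgn, which encodes cingulin, had 108 and 119, and Cgnl1, which encodes its relative paracingulin, had 84.9 and 83.8. Tjp1 (chr7:65296165-65527781, - strand), which encodes ZO-1, had 98.2 and 101, and Tjp3, which encodes ZO-3, had 77.7 and 101. For both Tjp genes this peak sits at an internal start site, 156466 bp from the most 5′ one in Tjp1 and 5646 bp in Tjp3. At the most 5′ start site alone, Tjp1 had a mean of 15.7 and Tjp3 of 14.95, so the choice of start site moved both by more than 1.5 times. With a window of 2 kb the Tjp3 mean was 259, through a peak beyond 1 kb of its own start sites.

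By mean signal, polarity genes held 3 of the 4 strongest promoters of the 34. They held 2 of 4 in replicate 1 alone, where Cldn15 passed Pard6a, and 2 of 4 with a window of 2 kb, where Tjp3 and Crb3 led. Those 2 kb peaks lay beyond 1 kb of the genes' own start sites. They were stronger than any site within 50 kb that was away from every annotated TSS (66.5 for Tjp3 and 90.9 for Crb3). They therefore appear to lie at start sites of other genes. Pard6b (chr2:168081004-168101203, + strand), a PAR6 adaptor, had 142 and 173, and Prkci, the atypical protein kinase C of the same complex, had 142 and 168. Pard6a had 126 and 139 from a peak that also lies within 1 kb of a TSS of Acd. The replicate ranges of Pard6b, Prkci and Cldn12 overlapped, and Pard6a lay below them with a range that took in that of Cldn15. Pard3, which encodes the PAR3 scaffold, differed most between replicates of all members, with 64.6 and 105, and its strongest peaks in the replicates were neighbours that did not overlap. Crb3 (chr17:57059105-57065918, + strand), the Crumbs protein of epithelia, was the lowest, with 60.1 and 61.0 from a peak 790 and 770 bp downstream of a TSS and within 1 kb of a TSS of Slc25a23. The Crb3 value followed the window: its mean was 22.3 with 500 bp, 60.5 with 1 kb and 172 with 2 kb. The number of claudins below the lowest scaffold or polarity gene moved with it: 11 of 15 with 1 kb, 4 of 14 with 500 bp and 15 of 17 with 2 kb, where Cgnl1 was the lowest. With the most 5′ start site only, where Tjp3 was the lowest, it was 1 of 14.

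Claudin promoters had a median signal of 35.9 over the 15 genes with a peak (34.5 in replicate 1 and 37.3 in replicate 2). The median was 99.5 over the 9 scaffold and polarity genes (98.2 and 105), 37.3 over the 6 other transmembrane genes and 99.8 over all 15743 protein-coding genes with a promoter peak. The classes overlapped gene by gene, with means from 12.2 to 157 in claudins and from 60.5 to 158 in scaffold and polarity genes. A promoter stronger than the genome median was found at 2 of 15 claudins, 4 of 9 scaffold and polarity genes and 1 of 6 other transmembrane genes. With 1 group there is no test between conditions, and no p-value was computed over genes. Peaks in the replicates stayed within 1.5-fold of each other at 29 of 30 members, and Pard3 was the exception at 1.63-fold. Replicate 2 was the higher at 7 of 15 claudins and at 12 of 15 other members. The median log2 ratio of replicate 2 to replicate 1 was -0.01 in claudins, 0.14 in the other members and 0.12 in all protein-coding genes with a promoter peak, so the other members lay near the shift of all genes.

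The classes also differed in promoter CpG content, which moves with promoter accessibility across the genome. CpG observed over expected, taken 500 bp to each side of the most 5′ TSS, had a median of 0.396 in claudins, 0.749 in scaffold and polarity genes, 0.705 in the other transmembrane genes and 0.552 in all protein-coding genes. Of the 19 claudins, 11 fell in the second lowest of 5 genome quintiles and 0 in the lowest, while 4 of 9 scaffold and polarity genes fell in the highest. Across all genes, a promoter peak in both replicates was present at 53.0% of genes in quintile 2 and at 99.0% in quintile 5. Claudins also had fewer annotated TSSs, with a median of 1 against 5 for scaffold and polarity genes.

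Set beside genes of like CpG content, the claudins were not short of promoter peaks. All genes, weighted to the quintiles of the claudins, had a peak in 69.4% of cases, and weighted also to their TSS number in 57.3%, against the observed 78.9%. For scaffold and polarity genes the same values were 91.6% and 95.7%, against 100%. They were 95.4% and 96.5% for the other transmembrane genes, against 100%, and 79.8% and 74.4% for all members, against 88.2%. All these weighted shares lay within the exact intervals of their gene sets. Signal kept a gap after this step. Among genes with a peak in the same quintile, the median percentile was 28.6 for claudins and 54.0 for scaffold and polarity genes. It was 15.9 for the other transmembrane genes. The size of the gap may rest on Tjp3, whose quintile came from a start site other than the internal one that gave its signal. Tjp3 stood at percentile 77.0, whereas Cgnl1, with a similar signal in a higher quintile, stood at 29.3. A rank as low for Tjp3 would make Crb3, at 38.0, the median of the class. The rank of Tjp3 by the CpG content of its internal start site was not tested.

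**Figure D2:**
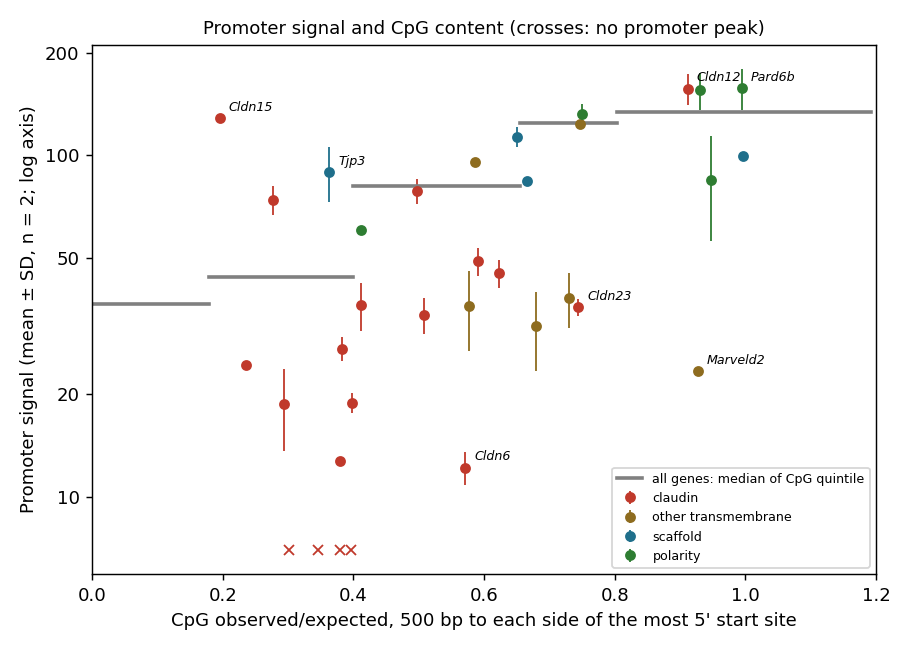
Promoter signal (y axis, mean ± SD of 2 replicates, log scale) against CpG observed over expected around the most 5′ start site (x axis) for each member, with grey bars at the median of all genes in each CpG quintile and crosses for genes without a promoter peak. Cldn15 (129) stands above its quintile's median of 44.0, whereas Cldn6 (12.2), Marveld2 (23.4) and Cldn23 (35.9) stand below theirs (81.2, 134 and 124).

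Single members went against the genome trend with CpG. Cldn15 had the lowest CpG ratio of all members (0.195), yet its signal stood at the 87.9th percentile of its quintile. Marveld2 had a ratio of 0.927 and stood at the 2.70th percentile of quintile 5, and Cldn6 at the 1.58th percentile of quintile 3. The sequences under 3 promoter peaks are shown because they set CpG content against signal, with CpG dinucleotides in capitals, 5′ to 3′ on the strand of the gene, from RefSeq's GRCm38 genome (the build of mm10). Only bases outside annotated exons are printed here and further on.
Cldn15, chr5:136966441-136966590 (+ strand): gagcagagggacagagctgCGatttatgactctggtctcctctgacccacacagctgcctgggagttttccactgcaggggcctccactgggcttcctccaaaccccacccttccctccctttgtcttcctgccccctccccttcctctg
Cldn23, chr8:35826701-35826850 (- strand): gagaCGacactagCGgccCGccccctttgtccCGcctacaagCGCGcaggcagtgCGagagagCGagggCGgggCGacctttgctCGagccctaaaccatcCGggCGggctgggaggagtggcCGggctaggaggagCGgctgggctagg
Tjp3, chr10:81285841-81285990 (- strand): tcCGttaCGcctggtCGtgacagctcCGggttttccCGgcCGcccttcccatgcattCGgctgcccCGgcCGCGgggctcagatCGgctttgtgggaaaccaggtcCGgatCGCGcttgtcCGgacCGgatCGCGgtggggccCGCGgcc
The Cldn15 peak held 1 CpG and had a mean signal of 129 ± 2.02 (SD, n = 2), whereas the Cldn23 peak held 15 and had 35.9 ± 1.98. The Tjp3 peak at the internal start site held 20 and had 89.4 ± 16.6, although the most 5′ start site of Tjp3 lies in CpG quintile 2. The peak of Cldn12, the strongest claudin, is centred in an exon of Cldn12 in both replicates and is not printed.

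Most members had more distal sites around them than the median gene, and claudins had the fewest of the 3 classes by median. A shared distal site was the union of overlapping peaks of both replicates with its centre more than 1 kb from any annotated TSS, counted within 50 kb of the most 5′ TSS of the gene. Promoter peaks were taken by overlap and distal sites by centre, so a peak could count as both. The promoter peak of Cldn20 was also among its 7 distal sites. The median was 8 sites for claudins (range 2 to 18), 11 for scaffold and polarity genes (7 to 32), 12.5 for the other transmembrane genes (6 to 15) and 6 for all protein-coding genes. More sites than the median gene were found around 14 of 19 claudins, 9 of 9 scaffold and polarity genes and 5 of 6 other transmembrane genes, against 46.6% of all genes. Among genes of the same CpG quintile, the median percentile of the count was 57.8 for claudins, 69.1 for scaffold and polarity genes and 77.3 for the other transmembrane genes. Nearness gives no evidence of which gene a site acts on.

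**Figure D3:**
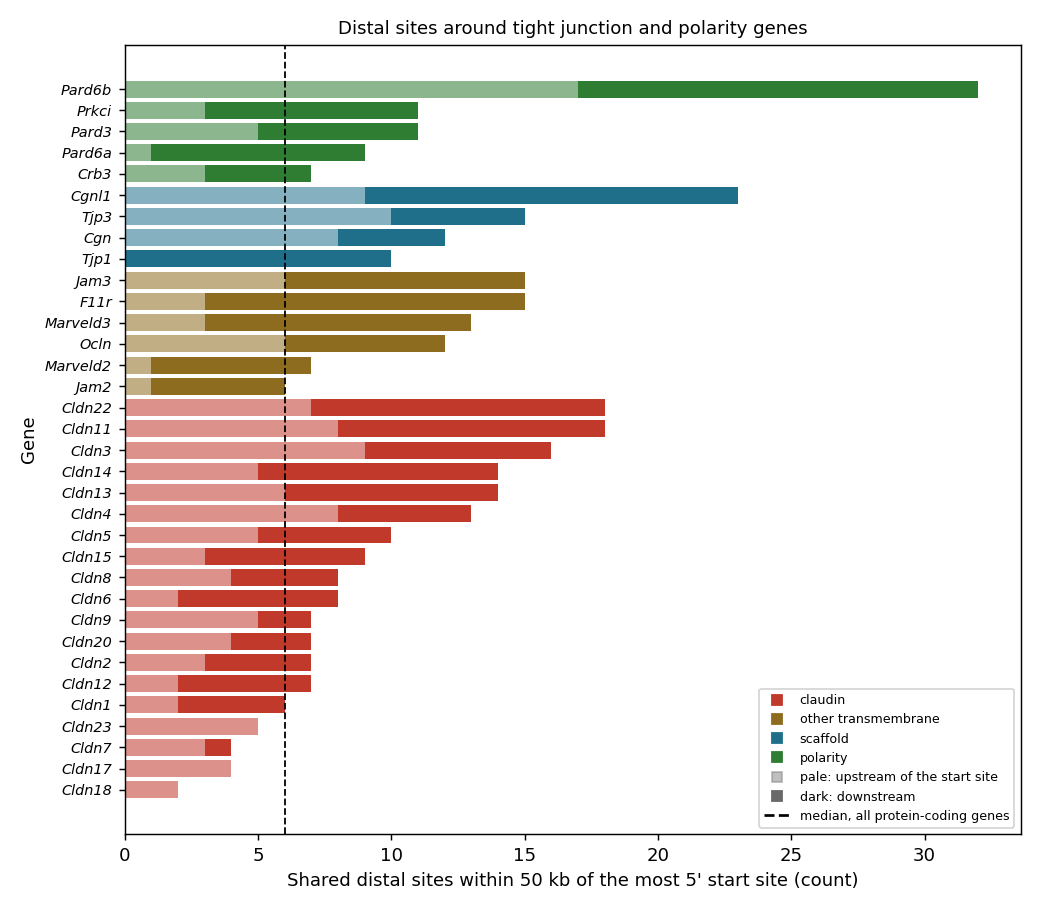
Number of shared distal sites within 50 kb of the most 5′ start site of each member (x axis), split into sites upstream (pale) and downstream (dark), with a dashed line at the median of all protein-coding genes (6). Pard6b has 32 and Cgnl1 23, while Cldn18 has 2.

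By gene, Pard6b had 32 sites, at percentile 99.8 of all protein-coding genes, and 17 of them lay upstream. Cgnl1 had 23, of which 14 lay inside the gene. Cldn11 and Cldn22 had 18 each and Cldn3 had 16, and at the low end Cldn23 had 5, Cldn7 and Cldn17 had 4 and Cldn18 had 2. Many distal sites could surround a promoter with a weak peak or none: Cldn13 had 14 and no promoter peak, and Cldn14 had 14 and a mean promoter signal of 12.8. Cldn12, with the strongest claudin promoter, had 7. The 34 windows held 375 sites, or 341 when each was counted once, because neighbours share sites. Of these 341, 163 were intergenic, 153 intronic and 25 exonic, and their median signal in replicate 1 was 19.6, beside 19.8 over all 151068 shared distal sites, while in replicate 2 it was slightly above the 18.6 of all sites.

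In claudins the strongest distal site was mostly stronger than the promoter. Its mean signal exceeded that of the promoter peak at 12 of 15 claudins, all but Cldn1, Cldn12 and Cldn15. The same held at 1 of 9 scaffold and polarity genes (Crb3), at 3 of 6 other transmembrane genes (F11r, Marveld2 and Marveld3) and at 30.8% of all protein-coding genes with a promoter peak. Weighted to the CpG quintiles of each class, that share of all genes was 44.0% for claudins (80.0% observed), 26.2% for scaffold and polarity genes (11.1% observed) and 25.3% for the other transmembrane genes (3 of 6 observed). Cldn3 and Cldn4 had the same strongest site, as did Cldn6 and Cldn9, so the 12 claudins did not have 12 separate sites. The shares were not weighted to the number of distal sites, which had a median of 8 for claudins and 6 for all genes. The strongest distal site of each gene had a median of 67.4 over the 19 claudins and 76.8 over the 9 scaffold and polarity genes, a smaller gap than between their promoter medians of 35.9 and 99.5.

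The 8 strongest sites were spread over both kinds of gene. First came a site 47671 bp downstream of the Pard6b TSS (chr2:168128601-168128750, intergenic) with 129 and 135, at percentile 99.6 of all shared distal sites in each replicate. A site in an intron of F11r, 2960 bp from the TSS (chr1:171440421-171440570), had 119 and 133, more than the F11r promoter. A second Pard6b site at 34131 bp (chr2:168115061-168115210, intergenic) had 123 and 125. An intergenic site at -30424 bp from the Cldn7 TSS (chr11:69934281-69934430) had 109 and 112, and lies 1441 bp from another annotated TSS. An intronic site of Prkci (chr3:31022921-31023070) had 109 and 111. The intergenic site chr17:23700201-23700370, 21036 bp downstream of the Cldn6 TSS and at -16259 bp from that of Cldn9, had 117 and 103. An intergenic site 20934 bp upstream of Jam3 (chr9:27176281-27176430) had 97.1 and 120, and one 3775 bp upstream of Cldn11 (chr3:31146061-31146230) had 96.7 and 114.

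Elsewhere the strongest site of a gene was weaker. Cldn2 had 24.7 and 35.0 at its strongest, Jam2 27.8 and 26.7, Ocln 25.5 and 32.3, and Cldn8 and Cldn17 shared one of 29.9 and 34.4. The endothelial claudin gene Cldn5 had 54.3 and 52.3 at a site 5178 bp downstream, in an intron of Cdc45. Cldn18, with no promoter peak, had one of 54.5 and 61.4 located 12908 bp upstream.

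Claudin genes that lie side by side had distal sites in common, which follows in part from their overlapping windows. Cldn3, Cldn4 and Cldn13 lie on chromosome 5, with the TSSs of Cldn3 and Cldn4 39.3 kb apart and those of Cldn4 and Cldn13 31.4 kb apart. Of 16 sites around Cldn3 and 13 around Cldn4, 10 were the same, and Cldn4 and Cldn13 (14 sites) had 8 in common. The strongest distal site of both Cldn3 and Cldn4 was chr5:134965601-134965750, between them, with 75.5 and 85.6, above the promoter signal of either gene. The strongest peak of the locus, 147 and 150, lay at the start sites of Mettl27 and 9030607J07Rik, which are not junction genes. Cldn6 and Cldn9 had 7 sites in common of 8 and 7. The Cldn9 promoter signal was above that of Cldn6 in each replicate with the 1 kb window. With 2 kb the order turned, with means of 74.2 for Cldn9 and 78.6 for Cldn6. The latter came from a peak that appears to lie at a start site of another gene.

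**Figure D4:**
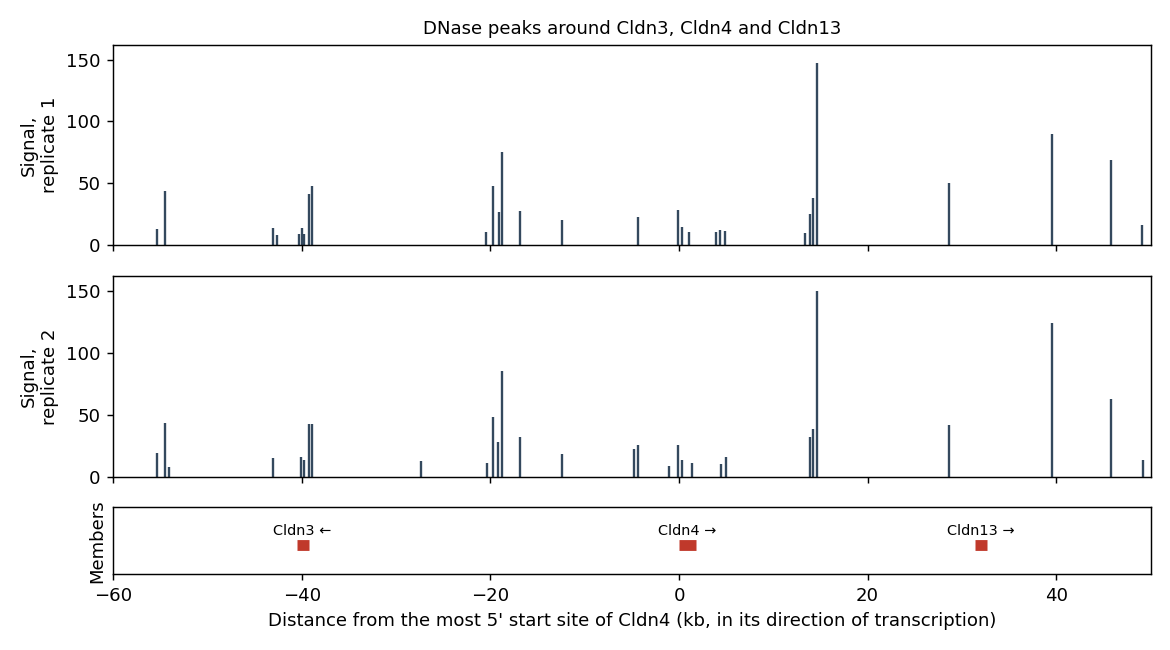
Peaks of replicate 1 (top) and replicate 2 (middle) as vertical lines at their signal value (y axis), against distance from the Cldn4 start site in kb in the direction of Cldn4 transcription (x axis), with the 3 claudin genes and their directions below. The site at -18741 bp (75.5 and 85.6) is higher than the peaks at Cldn3 and Cldn4, and no peak stands at the start of Cldn13.

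**Figure D5:**
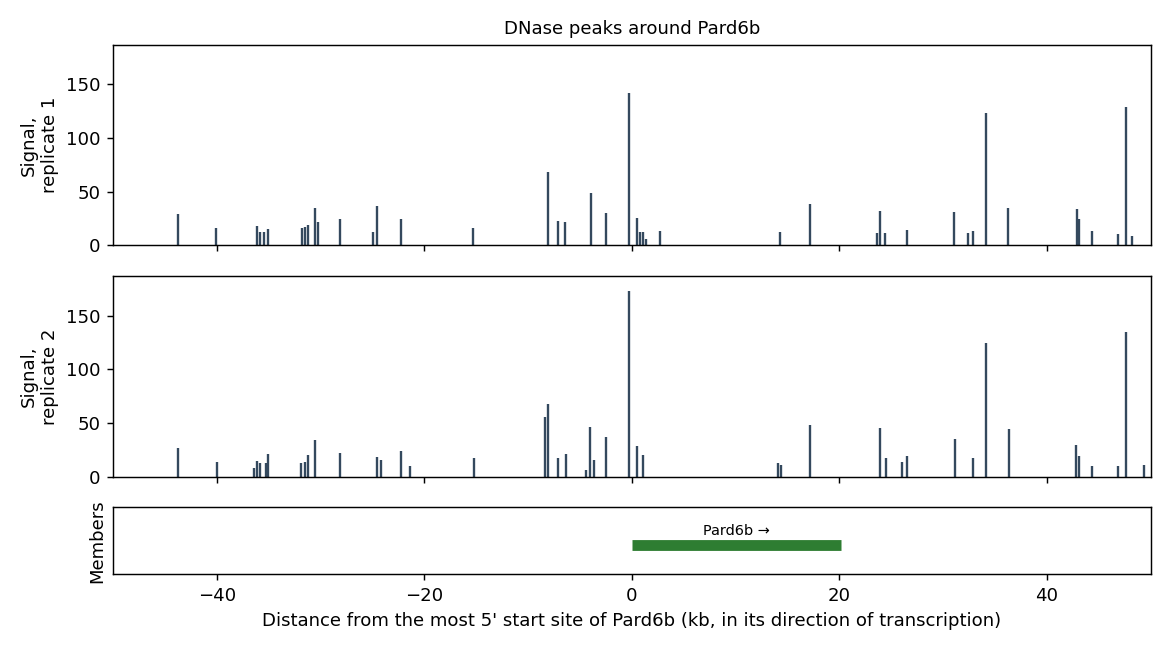
Peaks of replicate 1 (top) and replicate 2 (middle) as vertical lines at their signal value (y axis), against distance from the Pard6b start site in kb (x axis), with the gene below. The promoter peak (142 and 173) is flanked by many sites, and 2 downstream sites at 34131 and 47671 bp reach 123 to 135.

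The strongest promoter peaks of the members held the core E-box CACCTG more often than those of all genes. This sequence (searched on both strands, so also as CAGGTG) is bound by Snail and ZEB repressors of epithelial genes and by other E-box factors. A match lay in 8 of 30 member peaks (26.7%, exact interval 12.3 to 45.9), against 7.07% of the strongest promoter peaks of all protein-coding genes and 7.36% when all genes were weighted to the CpG quintiles of the members. In shared distal sites near members, 45 of 341 central 150-bp windows had a match (13.2%, 9.79 to 17.3), against 7.22% of all shared distal sites. The share of all distal sites was not weighted to the CpG content or gene position of the member sites. Claudins alone had a match in 4 of 15 promoter peaks (26.7%, 7.79 to 55.1) and 14 of 149 distal sites (9.40%, 5.23 to 15.3). The interval for claudin distal sites took in the 7.22% of all shared distal sites. Neighbouring sites are not independent, and 9 motifs were searched. A match is a description of the letters and does not show that a factor binds.

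The peak of the replicate with the higher signal was searched. The 8 member promoters with a match were Cldn4, Cldn6, Cldn8, Cldn9, Ocln, Marveld3, F11r and Pard6b. The parts of these peaks outside exons that hold a match are shown for 7 of them, with every E-box in capitals, because 3 of the 7 hold 2 copies.
Cldn4, chr5:134946941-134947090 (- strand): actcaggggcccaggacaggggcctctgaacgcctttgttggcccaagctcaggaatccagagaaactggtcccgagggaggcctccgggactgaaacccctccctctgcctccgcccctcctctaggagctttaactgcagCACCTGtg
Cldn6, replicate 2 peak, chr17:23679621-23679658 (+ strand): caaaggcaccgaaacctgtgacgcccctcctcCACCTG
Cldn8, chr16:88563201-88563350 (- strand): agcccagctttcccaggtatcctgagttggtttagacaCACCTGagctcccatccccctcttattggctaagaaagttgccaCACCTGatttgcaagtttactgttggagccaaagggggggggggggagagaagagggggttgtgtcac
Cldn9, chr17:23684401-23684550 (- strand): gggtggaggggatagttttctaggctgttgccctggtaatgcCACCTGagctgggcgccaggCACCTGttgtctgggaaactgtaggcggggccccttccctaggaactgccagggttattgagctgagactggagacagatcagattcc
Marveld3, chr8:109962206-109962330 (- strand): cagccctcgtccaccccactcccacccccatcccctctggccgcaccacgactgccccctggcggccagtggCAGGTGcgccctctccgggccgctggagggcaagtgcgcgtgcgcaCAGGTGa
F11r, chr1:171437421-171437534 (+ strand): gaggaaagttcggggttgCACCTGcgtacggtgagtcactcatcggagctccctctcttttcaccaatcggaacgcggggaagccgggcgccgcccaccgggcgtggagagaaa
Pard6b, chr2:168080727-168080810 (+ strand): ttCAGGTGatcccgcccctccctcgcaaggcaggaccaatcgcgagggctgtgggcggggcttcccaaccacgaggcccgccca
The repeated matches are in Cldn8, Cldn9 and Marveld3. Promoters with the E-box covered the whole range of signal, from 12.2 ± 1.36 at Cldn6 to 158 ± 21.8 at Pard6b (mean ± SD, n = 2).

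For the other motifs named here, the share in all promoter peaks or distal sites lay inside the exact interval for the members. The GRHL sequence AACNNGTT, bound by Grainyhead-like activators of junction genes, lay in 2 of 30 member promoter peaks (Cldn5 and Cgn; 6.67%, 0.818 to 22.1, against 1.36% of all) and in 6 of 341 distal sites (1.76%, 0.648 to 3.79, against 2.41%). TFCP2L1, a relative of these factors in the collecting duct (CCNG, 6 bases of any kind, CCNG), had matches in 7 of 30 promoter peaks (23.3%, against 26.7%) and 39 of 341 distal sites (11.4%, against 9.89%). The TEAD sequence GGAATG was found in 2 of 30 promoter peaks (6.67%, against 6.51%) and 56 of 341 distal sites (16.4%, 12.7 to 20.8, against 13.0%). The SP/KLF sequence GGGGCGGGG was found in 3 of 30 promoter peaks (interval 2.11 to 26.5%, against 14.5%). The HNF4 sequence CAAAGTCCA and the ETS sequence ACCGGAAG had 0 matches in the 30 promoter peaks, against 0.194% and 3.36% of all. In the 341 distal sites they had 2 and 1, against 0.362% and 0.399% of all, so such low counts are near the background. The strongest distal site and the 3 strongest sites outside exons with a GRHL match are shown on the + strand, with the CTCF match (CCAC, any base, AGGTGGC) of the first and the GRHL match of the others in capitals.
Pard6b, 47671 bp downstream, chr2:168128601-168128750 (+ strand): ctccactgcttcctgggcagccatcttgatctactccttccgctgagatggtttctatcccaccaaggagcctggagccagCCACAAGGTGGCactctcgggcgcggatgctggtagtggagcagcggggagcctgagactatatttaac
Pard6b, 34131 bp downstream, chr2:168115061-168115210 (+ strand): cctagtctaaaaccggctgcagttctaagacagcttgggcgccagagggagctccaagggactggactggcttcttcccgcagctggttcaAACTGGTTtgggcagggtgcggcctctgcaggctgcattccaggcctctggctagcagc
Cldn6 and Cldn9, chr17:23700211-23700360 (+ strand): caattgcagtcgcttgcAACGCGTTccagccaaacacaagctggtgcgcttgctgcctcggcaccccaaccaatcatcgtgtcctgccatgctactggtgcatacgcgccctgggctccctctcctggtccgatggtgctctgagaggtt
Marveld3, 16678 bp downstream, chr8:109945451-109945600 (+ strand): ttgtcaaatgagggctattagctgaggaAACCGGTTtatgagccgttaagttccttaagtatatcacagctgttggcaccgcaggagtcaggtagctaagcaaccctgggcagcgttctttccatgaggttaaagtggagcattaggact
The 4 sites had mean signals of 132 ± 4.20, 124 ± 1.38, 110 ± 9.83 and 39.8 ± 2.56 (SD, n = 2), so those with a GRHL match were not of 1 strength.

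Other junction and polarity genes, taken from a separate list, were similar in share. A promoter peak in both replicates was found at 26 of 27 genes, with a median signal of 70.7 and a median of 8 distal sites. All protein-coding genes had 71.8%, 99.8 and 6. Many of the 27 genes lie in CpG quintiles 4 and 5, where 97.9% and 99.0% of all genes had a promoter peak, so a high count is near the background. The strongest were the scaffold genes Magi3 (239 and 257), Mpp5 (200 and 202) and Amotl2 (183 and 188), and Cldn16, a magnesium and calcium pore of the thick ascending limb, had none. The 3 other claudins of that list, named after their values were seen, were also low, with 23.8 and 22.7 at Cldn10, 38.5 and 9.03 at Cldn19, and 13.7 and 10.05 at Cldn24. A promoter peak was also present, in both replicates, at all 8 genes of a list of transcription factors that act on epithelial junction genes or on epithelial identity. Such a count is near the background, since 7 of the 8 lie in CpG quintiles 4 and 5, where 97.9% and 99.0% of all genes had one. Of the Grainyhead-like activators, Grhl2 had 45.0 and 51.2, and Grhl1 140 and 138. Ovol1 and Ovol2, zinc-finger repressors that maintain epithelial identity, had 42.9 and 47.9, and 16.98 and 29.1. The repressors of junction genes had 194 and 225 at Snai1, 149 and 136 at Snai2, 94.95 and 114 at Zeb1, and 67.4 and 73.3 at Zeb2. The Snail and ZEB genes are also expressed in mesenchymal cells, which kidney tissue contains.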

How the data were processed

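DNase-seq peak lists of 2 libraries of newborn kidney were used. Per the descriptions deposited with the files, the authors made 1 narrowPeak list per library from 1 alignment of 36-nt reads to mm10, so replicates were not pooled. The aligner, peak caller and threshold, not given in the sources used here, could change which weak peaks were listed. Column 7, the signal deposited for each peak, came in steps of 1/64, and a scaling by sequencing depth is not stated there. The deposited −log10 p of each peak (maximum 324) was not used. Nearly all peaks were 150 bp wide, so a strong region can hold several.

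Peaks of the autosomes and sex chromosomes were set against GENCODE M21 and RefSeq's GRCm38 genome, and 0 peaks reached past a chromosome end. Sharing needed 1 bp of overlap. Members, lists and motifs were chosen with earlier results of these data known. All 34 members are named, as are the 8 strongest distal sites. The sequences of Cldn15, Cldn23, Tjp3 and those with an E-box were added after their values were seen. Each motif search used 150 bp around a peak's or site's centre. Exact binomial intervals (95%) cover counting error only. A marker gene and a motif of the lists are not reported here. Steps were tested on simulated data. Tools were matplotlib 3.10.9, pysam 0.24.0, scipy 1.17.1, pandas 2.3.3 and numpy 2.4.6 under Python 3.11.15. Alternatives were other windows, TSS sets, overlaps and signal cutoffs, and each replicate alone.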

Additional observations from a re-analysis of the deposited data

How the results depend on the processing

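Counts of genes with a promoter peak stayed within 1.5 times under all settings tried: 12 to 17 of 19 claudins, 9 of 9 scaffold and polarity genes and 6 of 6 other transmembrane genes. The difference in share between scaffold and polarity genes and claudins was 21.1 percentage points. It was 26.3 with a window of 500 bp, with the most 5′ TSS only and with the peak centre within 1 kb (a setting chosen after seeing the data), 10.5 with 2 kb, where Cldn2 and Cldn17 gained a peak, and 36.8 with only the stronger 50% of peaks, where Cldn6, Cldn8 and Cldn14 lost theirs. Leaving out a replicate gave 21.1 both ways.

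The claudin median signal was 40.8 with the upper 50% of peaks and 34.5 to 37.3 with 1 replicate left out. The scaffold and polarity median was 132 with 2 kb, 85.0 with the most 5′ TSS only and 98.2 to 105.4 with 1 replicate left out. The value with 2 kb rests on peaks of Tjp3 and Crb3 that appear to lie at start sites of other genes. Median distal counts for claudins and for scaffold and polarity genes were 5 and 8 within 25 kb, 17 and 24 within 100 kb, and 4 and 6 with the upper 50% of peaks. They were 6 and 11 with an overlap of at least 75 bp, and 8 and 24 over the gene body and 50 kb to each side, where all genes had 8. With 1 replicate left out they were 10 to 11 and 16 to 17, since unshared peaks then count. Claudins stayed below scaffold and polarity genes in both medians in each setting. No paired analysis was possible because there is 1 group.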
